A study of Mus musculus with 10 samples.

Results

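The transcripts of 10 genes of hepatic fatty acid synthesis, elongation and desaturation were examined in liver RNA of ethanol-fed mice labelled NIKhKO or NIKflox. They were picked by gene name for their function, and they are 10 of 55401 genes in the expression table. NIKhKO livers (5) were compared with NIKflox livers (5), and every mouse of both genotypes had received the Lieber-DeCarli ethanol liquid diet, with 5% ethanol, for 4 weeks. The deleted gene is Map3k14, whose product NIK is a kinase of the noncanonical NF-kB pathway, and the study title concerns hepatic NIK and lipogenesis under ethanol. The labels give neither the promoter that drives the deletion, nor the excised part of the gene, nor the age or litter of the mice, and no group on a control diet was analysed here. Because nothing says that the libraries of a genotype are independent litters, p-values measure the spread between these samples. In whole-liver RNA, fewer cells of a type and less RNA per cell cannot be told apart.

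The pathway makes long-chain fatty acids from acetyl-CoA. Fatty acid synthase (Fasn) builds palmitate, the elongase Elovl6 lengthens it to stearate, and the stearoyl-CoA desaturases Scd1 and Scd2 introduce the first double bond. A second branch acts on dietary polyunsaturated fatty acids, which the desaturases Fads2 and Fads1 and the elongase Elovl5 convert into longer and more unsaturated products. In liver the branches are controlled by SREBP-1, encoded by Srebf1, which responds to insulin, and by ChREBP, encoded by Mlxipl, which responds to glucose. Thrsp encodes a small nuclear and cytosolic protein that promotes lipogenesis and is itself a target of both factors.

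Of the 10 genes, 4 lie on chromosome 19, as neighbouring pairs. Fads2 (minus strand, 10062765 to 10101746) and Fads1 (plus strand, 10182888 to 10196877) are 81.1 kb apart, and Scd2 (plus strand, 44293674 to 44306864) and Scd1 (minus strand, 44394455 to 44407709) are 87.6 kb apart. Fasn (120805846 to 120824547) and Srebf1 (60199089 to 60222581) are on the minus strand of chromosome 11. Mlxipl is on chromosome 5 (135089890 to 135138382), Thrsp on chromosome 7 (97412938 to 97417730), Elovl5 on chromosome 9 (77917364 to 77984519) and Elovl6 on chromosome 3 (129532355 to 129634971). Coordinates are those of the deposited table, read as GRCm38.

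Upstream sequence is shown for Fasn, Thrsp and the genes of both transcription factors, whose transcripts are set against each other across livers further on, and for Elovl5 of the polyunsaturated branch. Each is the 250 bases before a RefSeq transcript start (GRCm38.p6), written 5′ to 3′ on the strand of the gene. Capitals mark matches on either strand to 5 letter patterns, TCACNCCAC (a sterol regulatory element), CACGTG (an E-box, its own reverse complement), CCAAT (the NF-Y box, ATTGG on the other strand), GGGCGG (the Sp1 box, CCGCCC on the other strand) and the DR4 element of the liver X receptor. The windows are chr11:120824548-120824797 for Fasn (minus strand), chr7:97417551-97417800 for Thrsp (minus), chr5:135089640-135089889 and chr5:135106641-135106890 for the 2 starts of Mlxipl (plus), chr11:60210472-60210721 for the start of Srebf1 that holds most matches (minus) and chr9:77917115-77917364 for Elovl5 (plus).
Fasn: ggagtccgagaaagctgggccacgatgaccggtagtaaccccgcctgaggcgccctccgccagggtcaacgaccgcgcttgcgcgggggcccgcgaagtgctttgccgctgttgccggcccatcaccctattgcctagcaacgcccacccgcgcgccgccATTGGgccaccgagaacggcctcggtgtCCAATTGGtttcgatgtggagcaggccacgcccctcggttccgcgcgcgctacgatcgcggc
Thrsp: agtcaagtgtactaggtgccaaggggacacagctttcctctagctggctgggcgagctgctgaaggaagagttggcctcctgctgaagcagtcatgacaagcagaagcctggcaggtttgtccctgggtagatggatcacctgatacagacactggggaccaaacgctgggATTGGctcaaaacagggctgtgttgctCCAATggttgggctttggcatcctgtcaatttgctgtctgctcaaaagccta
Mlxipl, first start: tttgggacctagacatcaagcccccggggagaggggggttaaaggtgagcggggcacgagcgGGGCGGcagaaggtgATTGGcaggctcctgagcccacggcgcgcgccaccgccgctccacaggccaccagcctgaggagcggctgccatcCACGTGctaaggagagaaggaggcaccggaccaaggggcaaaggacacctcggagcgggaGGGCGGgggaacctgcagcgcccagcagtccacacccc
Mlxipl, second start: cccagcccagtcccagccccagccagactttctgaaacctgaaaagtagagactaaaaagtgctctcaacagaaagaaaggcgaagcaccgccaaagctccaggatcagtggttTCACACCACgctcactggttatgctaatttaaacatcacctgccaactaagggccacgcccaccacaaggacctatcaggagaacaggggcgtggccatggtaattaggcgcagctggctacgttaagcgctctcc
Srebf1: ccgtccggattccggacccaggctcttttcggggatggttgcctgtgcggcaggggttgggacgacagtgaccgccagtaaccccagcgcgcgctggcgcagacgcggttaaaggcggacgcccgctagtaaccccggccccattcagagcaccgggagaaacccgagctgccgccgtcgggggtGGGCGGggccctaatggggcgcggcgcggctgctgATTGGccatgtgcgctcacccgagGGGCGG
Elovl5: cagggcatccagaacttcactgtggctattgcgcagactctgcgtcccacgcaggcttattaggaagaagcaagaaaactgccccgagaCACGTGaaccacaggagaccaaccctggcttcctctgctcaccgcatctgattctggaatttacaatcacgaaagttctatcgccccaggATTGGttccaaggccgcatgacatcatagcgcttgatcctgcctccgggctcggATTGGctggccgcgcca

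Such a window was at hand for 7 of the 10 genes, 10 windows in all. The NF-Y letters occurred in 6 of the 10, against 33.8% of 32851 windows of the same length, and the Sp1 letters in 4, against 32.7%. In Fasn the NF-Y letters occurred 3 times, at 90 to 86, 62 to 58 and 59 to 55 bases before the start. The last 2 of these overlap in the run CCAATTGG. Thrsp held 2 NF-Y matches, at 79 to 75 and 52 to 48 bases before its start, and Elovl5 also held 2. An E-box stood in the first-start window of Mlxipl, 98 to 93 bases before the start, and in that of Elovl5, against 6.02% of all windows. The sterol element letters were found in 1 member window, as TCACACCAC in front of the second start of Mlxipl, against 1.05% of all windows, and DR4 in none, against 0.0152%. These are matches of letters. They show neither binding nor control, and their absence says only that these letters are not in the window.

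Estimated counts summed to between 53225028 and 64321202 per NIKhKO library and between 47161869 and 65052525 per NIKflox library. Map3k14 followed the labels: it read 0.347, 0.361, 0.443, 0.389 and 0.373 FPKM in NIKhKO livers 1 to 5, against 0.553, 0.510, 0.585, 0.899 and 0.483 FPKM in NIKflox livers 1 to 5, ranges that do not overlap, although its log2 fold change of −0.59 did not pass over all genes (edgeR adjusted p = 0.33). FPKM are fragments per kilobase of transcript, scaled to library size. Hepatocyte markers dominated every library (8 of 8 tested, none with an unadjusted p below 0.05). NIKflox 2 and NIKflox 4 held the most transcripts of other tissue. The 9 heart muscle markers summed to 0.115 to 0.958 FPKM in NIKhKO livers, against 7.26 FPKM in NIKflox 2, 31.5 FPKM in NIKflox 4 and 0.139 to 0.676 FPKM in the other NIKflox livers. The 6 adipose markers Adipoq, Cfd, Lep, Retn, Plin1 and Cidea summed to between 0 and 1.21 FPKM in NIKhKO livers, against 19.9 FPKM in NIKflox 2, 2.08 FPKM in NIKflox 4 and 0 in the other NIKflox livers. Car3 and Adrb3 were set aside from that list after their values were seen, since both were detected in every liver; with them the list summed to 636 to 1562 FPKM in NIKhKO livers, against 424 to 661 FPKM in NIKflox livers. NIKhKO 5 had the highest NIKhKO sums of the 6 adipose markers (1.21 FPKM) and of the heart markers (0.958 FPKM). In NIKhKO 5, as in NIKflox 4, 2 of those 6 were at a count of 0. It stayed in the fits that left out NIKflox 2 and 4. Stellate cell markers summed to 35.7 to 52.0 FPKM in NIKhKO livers, against 102 FPKM in NIKflox 2 and 44.7 to 59.0 FPKM in the other NIKflox livers. Further lists had different medians in the genotypes. B and plasma cell markers summed to 4.64 to 12.1 FPKM in NIKhKO livers (median 9.79), against 3.32 to 7.17 FPKM in NIKflox livers (median 5.42), with an unadjusted edgeR p below 0.05 for 4 of 4 tested. Cholangiocyte markers summed to 16.1 to 27.6 FPKM in NIKhKO livers (median 21.2), against 26.4 to 46.8 FPKM in NIKflox livers (median 31.3), with 2 of 4. Of the tested markers 3 of 3 for heart, 2 of 8 for stellate cells and 1 of 3 for adipose tissue were below 0.05, none for macrophages (9 tested) or endothelium (8 tested), and no marker passed over all genes. The part of these transcripts in the results was not tested. The log2 fold change of Map3k14 was −0.45 without NIKflox 2 and 4.

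None of the 10 genes passed the test of genotype. At an adjusted p below 0.05 over all genes (edgeR quasi-likelihood, Benjamini-Hochberg), 0 of the 10 were called, where 0.0236% of the 12731 genes tested were (3 genes). At an unadjusted edgeR p below 0.05 there were 2 of 10, Fads2 and Fads1, both with a positive log2 fold change, against 10% of all genes. DESeq2 called 0 of the 10 (1.63% of all genes) and limma on log2(FPKM + 1) called 0 (0% of all genes). The FPKM ranges of the genotypes overlapped for all 10, where 2.2% of all genes had ranges that do not. Log2 fold changes, NIKhKO minus NIKflox, were positive for 8 of the 10 and negative for Elovl6 and Scd2, with a median of 0.24, beside −0.0098 and 48.2% positive for all genes tested. Without NIKflox 2 and 4 the median was 0.13, with 7 positive.

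**Figure D1:**
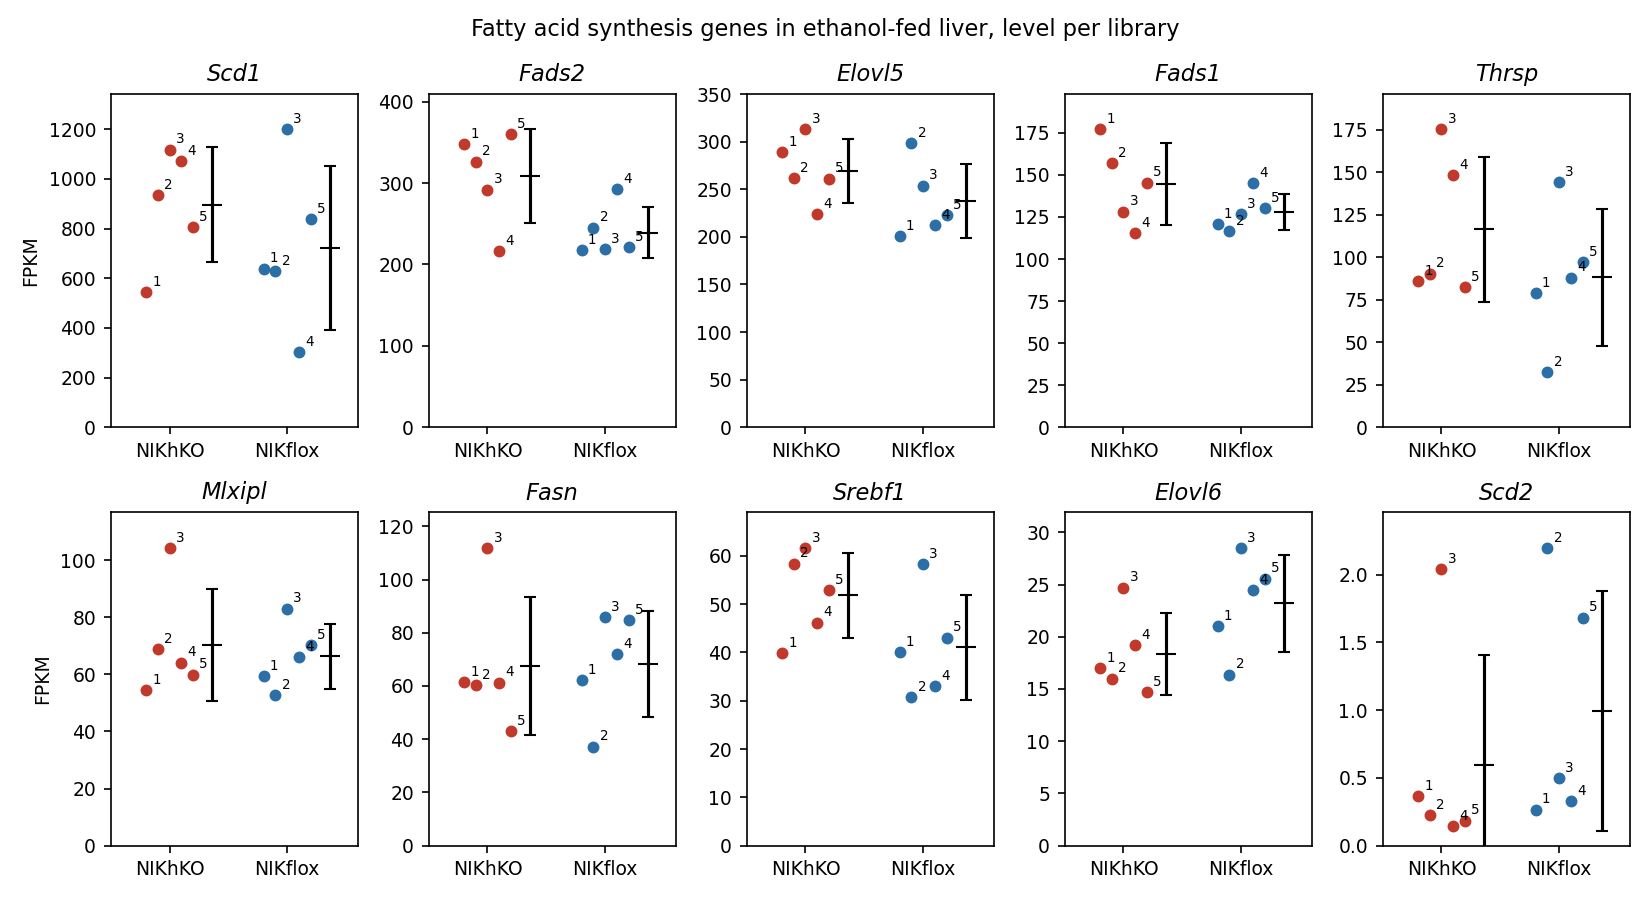
Level of each gene (FPKM, axis from 0) in the 5 NIKhKO livers (red, left) and the 5 NIKflox livers (blue, right), genes ordered by median level. Points carry the replicate number, the black bar is the mean ± SD (n = 5), cut at 0 for Scd2; the genotypes overlap in every panel.

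By level the genes spanned more than 3 orders of size in FPKM, a scale that corrects for transcript length. Scd1 was the most abundant, with a median of 822 FPKM over the 10 livers, and stood above Fads2 in 10 of 10. Fads2 (median 269 FPKM) and Elovl5 (258 FPKM) could not be ordered, since each was the higher in 5 livers. Fads1 followed at 129 FPKM and lay below Elovl5 in every liver. Thrsp (89.2 FPKM), Mlxipl (65.1 FPKM) and Fasn (61.8 FPKM) had overlapping ranges, with Mlxipl above Fasn in 4 of 10 livers. Srebf1 was at 44.6 FPKM, and Elovl6, at 20.1 FPKM, was below it in every liver without overlap. Scd2 was far below the rest, at 0.348 FPKM.

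The synthase and its elongase did not differ between the genotypes beyond their spread. Fasn, which carries all the catalytic steps from malonyl-CoA to palmitate, read 61.5, 60.3, 112, 61.2 and 43.1 FPKM in NIKhKO livers 1 to 5 and 62.1, 37.2, 85.8, 71.9 and 84.6 FPKM in NIKflox livers 1 to 5. The extremes are NIKhKO 3 at the top and NIKflox 2 at the bottom, and the ranges of the genotypes overlap (43.1 to 112 FPKM in NIKhKO, 37.2 to 85.8 FPKM in NIKflox). Its mean was 67.6 ± 26.0 FPKM in NIKhKO and 68.3 ± 19.9 FPKM in NIKflox (SD, n = 5 each), and the log2 fold change was 0.063 (SE 0.27, 95% interval −0.54 to 0.66; edgeR adjusted p = 0.97). That sign is not fixed: it was −0.22 without NIKhKO 3 and −0.088 without NIKflox 2. With both NIKflox 2 and NIKflox 4 left out the value was −0.13, and limma on log2(FPKM + 1) gave −0.027.

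Elovl6, which lengthens palmitate, read 16.98, 16.0, 24.7, 19.2 and 14.7 FPKM in the NIKhKO livers in order, against 20.99, 16.4, 28.5, 24.5 and 25.6 FPKM in the NIKflox livers. NIKhKO 1, 2, 4 and 5 lay below NIKflox 1, 3, 4 and 5. NIKhKO 3 and NIKflox 2 lay in the range of the other genotype. The means were 18.3 ± 3.93 FPKM in NIKhKO and 23.2 ± 4.66 FPKM in NIKflox, with a log2 fold change of −0.27 (SE 0.18, interval −0.65 to 0.12; edgeR adjusted p = 0.68). NIKhKO 3 moved this most: without it the value was −0.42 (edgeR adjusted p = 0.43).

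The stearoyl-CoA desaturases differed from each other in level and in pattern. Scd1, the main desaturase of hepatocytes, read 544, 935, 1118, 1073 and 806 FPKM in NIKhKO livers 1 to 5, against 639, 628, 1200, 304 and 837 FPKM in NIKflox livers 1 to 5. NIKflox 3 was the highest and NIKflox 4 the lowest of all 10, a 3.95-fold span within NIKflox, against 2.06-fold within NIKhKO. The means were 895 ± 231 FPKM in NIKhKO and 722 ± 329 FPKM in NIKflox, with a log2 fold change of 0.38 (SE 0.32, interval −0.33 to 1.08; edgeR adjusted p = 0.77). Leaving out 1 liver, it moved most with NIKflox 3 and NIKflox 4, the highest and the lowest. NIKflox 4 also carried the most heart transcripts, whose part in this value was not tested. The log2 fold change was 0.18 without NIKflox 4, 0.069 without NIKflox 2 and 4, and 0.63 without NIKflox 3.

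Scd2, an isoform best known from brain, gave counts of only 47 to 795 per library, against 107177 to 353224 for Scd1. It read 0.367, 0.223, 2.04, 0.147 and 0.184 FPKM in NIKhKO livers 1 to 5 and 0.266, 2.20, 0.496, 0.328 and 1.68 FPKM in NIKflox livers 1 to 5. NIKhKO 3 and NIKflox 2 and 5 stood apart from the other 7, all of which were below 0.5 FPKM. Its log2 fold change of −0.66 (SE 0.84, interval −2.51 to 1.19; edgeR adjusted p = 0.86) depended on them, running from −2.07 without NIKhKO 3 to −0.13 without NIKflox 2, with −0.37 without NIKflox 2 and 4. Of the 3 livers, only NIKflox 2 held adipose markers; in NIKhKO 3 and NIKflox 5 all 6 were at a count of 0. Of the 75-base stretches of the longest Scd1 transcript in GENCODE M21, 1.66% occur unchanged in an Scd2 transcript (79 of 4758), so that some reads cannot be placed on either gene. The part of such reads in the Scd2 values was not tested.

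Fads2 and Fads1, which carry out the delta-6 and delta-5 desaturation of polyunsaturated fatty acids, had the smallest p-values of the 10 genes in the main edgeR fit. Fads2 read 348, 326, 292, 216 and 360 FPKM in NIKhKO livers 1 to 5, against 218, 245, 219, 292 and 222 FPKM in NIKflox livers 1 to 5. NIKhKO 1, 2 and 5 were above every NIKflox liver, NIKhKO 3 was level with NIKflox 4, and NIKhKO 4 was the lowest of all 10. Its mean was 308 ± 57.7 FPKM in NIKhKO and 239 ± 31.8 FPKM in NIKflox (SD, n = 5 each). The log2 fold change was 0.43 (SE 0.13, interval 0.14 to 0.73), or 1.35-fold, and its edgeR p of 0.0081, rank 330 of 12731 genes, became 0.31 after adjustment. Its adjusted p ran from 0.099, without NIKhKO 4, to 0.61 over the 20 alternatives, and in none did it pass.

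Fads1 had its high and low values in the same livers. It read 177, 157, 128, 115 and 145 FPKM in NIKhKO livers 1 to 5 and 121, 117, 127, 145 and 130 FPKM in NIKflox livers 1 to 5. Again NIKhKO 1, 2 and 5 were the 3 highest and NIKhKO 4 the lowest of the 10. Means of 145 ± 24.2 FPKM in NIKhKO and 128 ± 10.9 FPKM in NIKflox gave a log2 fold change of 0.24 (SE 0.11, interval 0.01 to 0.47; unadjusted p = 0.044, edgeR adjusted p = 0.48). The transcripts of Fads1 and Fads2 share no 31-base stretch, so reads of that length separate them.

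Elovl5, the elongase that works between these desaturation steps, read 289, 262, 313, 224 and 261 FPKM in NIKhKO livers 1 to 5, against 201, 299, 254, 213 and 223 FPKM in NIKflox livers 1 to 5. NIKhKO 4 was the lowest NIKhKO liver here as well, and NIKflox 2 stood above the other NIKflox livers. The log2 fold change was 0.25 (SE 0.14, interval −0.052 to 0.54; edgeR adjusted p = 0.60), on means of 270 ± 33.6 FPKM in NIKhKO and 238 ± 39.3 FPKM in NIKflox. It was 0.35 without NIKflox 2 (edgeR adjusted p = 0.395).

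**Figure D2:**
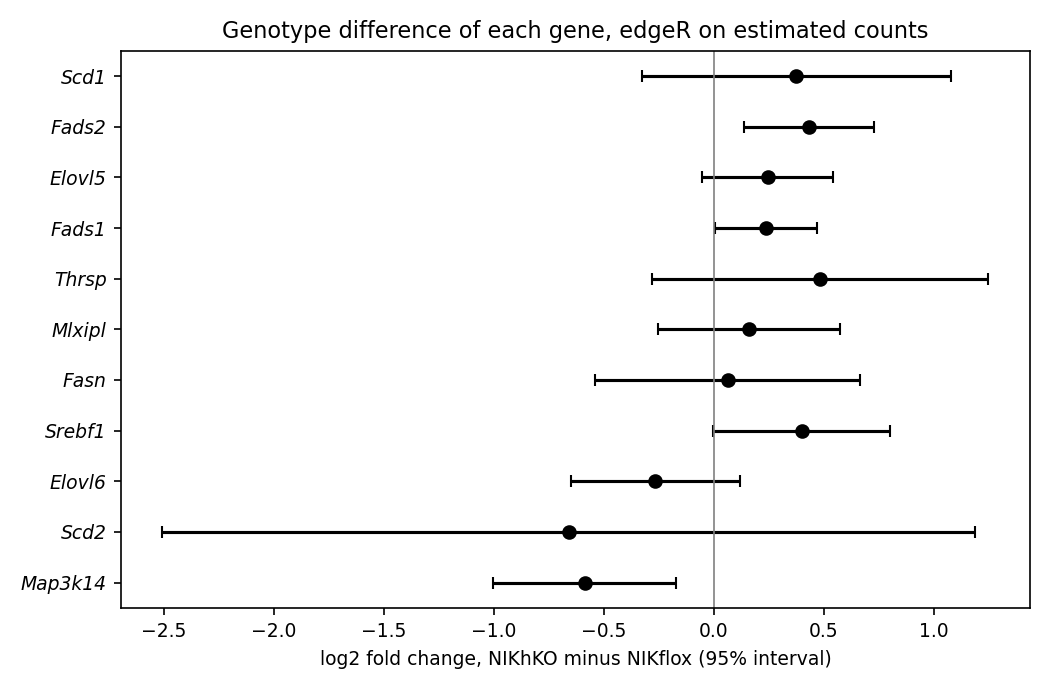
Log2 fold change, NIKhKO minus NIKflox, of each gene with its 95% interval (edgeR, 5 livers each), ordered by level, with Map3k14 below. Of the 10 genes the intervals of Fads2 (0.14 to 0.73) and Fads1 (0.01 to 0.47) lie above 0 before adjustment, that of Scd2 is the widest (−2.51 to 1.19), and none passed over all genes.

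Transcripts of the regulators overlapped between the genotypes. Srebf1 read 39.9, 58.4, 61.7, 46.2 and 52.9 FPKM in NIKhKO livers 1 to 5, against 40.1, 30.8, 58.3, 33.0 and 43.1 FPKM in NIKflox livers 1 to 5. Only NIKflox 3 among the NIKflox livers was above NIKhKO 1, 4 and 5 together. Means of 51.8 ± 8.88 FPKM in NIKhKO and 41.0 ± 10.9 FPKM in NIKflox gave a log2 fold change of 0.40 (SE 0.18, interval −0.00094 to 0.80; unadjusted p = 0.050, edgeR adjusted p = 0.50). The 2 lowest livers were NIKflox 2 and 4, those with the most heart transcripts. Without them the log2 fold change was 0.19 (edgeR adjusted p = 0.82), and the part of those transcripts was not tested. Leaving out 1 liver, it ran from 0.31 without NIKhKO 3 (edgeR adjusted p = 0.66) to 0.56 without NIKflox 3 (edgeR adjusted p = 0.29). The table sums the isoforms of SREBP-1 and does not measure its cleavage, which sets its activity.

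Mlxipl read 54.4, 68.8, 104, 64.1 and 59.9 FPKM in NIKhKO livers 1 to 5 and 59.3, 52.6, 83.0, 66.1 and 70.3 FPKM in NIKflox livers 1 to 5. Apart from NIKhKO 3 every NIKhKO liver lay within the NIKflox range. On means of 70.3 ± 19.8 FPKM in NIKhKO and 66.3 ± 11.5 FPKM in NIKflox the log2 fold change was 0.16 (SE 0.19, interval −0.25 to 0.57; edgeR adjusted p = 0.84), −0.053 without NIKhKO 3 and 0.050 without NIKflox 2 and 4.

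Thrsp varied most among the abundant genes, 5.45-fold from NIKflox 2 to NIKhKO 3. Its 5 NIKhKO livers read 85.8, 90.4, 175, 148 and 82.4 FPKM, against 79.1, 32.2, 144, 88.0 and 97.4 FPKM in the NIKflox livers. Means were 116 ± 42.7 FPKM in NIKhKO and 88.2 ± 40.2 FPKM in NIKflox, and the log2 fold change of 0.48 (SE 0.35, interval −0.28 to 1.25; edgeR adjusted p = 0.71) was the largest positive one of the 10. It was 0.26 without NIKhKO 3, 0.28 without NIKflox 2, 0.73 without NIKflox 3 and 0.19 without NIKflox 2 and 4 together. For 42.9% of all genes tested the highest liver was more than 2-fold above the lowest.

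The differences between livers of one genotype were shared by several of the genes. NIKhKO 3 had the highest level of 5 of the 10 genes (Fasn, Elovl5, Srebf1, Mlxipl and Thrsp) and was above the mean of 9. NIKflox 2 had the lowest level of 4 (Fasn, Srebf1, Mlxipl and Thrsp) together with the highest Scd2. NIKflox 3 was highest for Scd1 and Elovl6, and NIKhKO 4 lowest for Fads1, Fads2 and Scd2. NIKflox 2 also held the adipose, heart and stellate transcripts given above. In NIKhKO 3 the 6 adipose markers were at a count of 0, heart markers summed to 0.160 FPKM and stellate markers to 49.9 FPKM. The part of such transcripts in these differences was not tested.

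**Figure D3:**
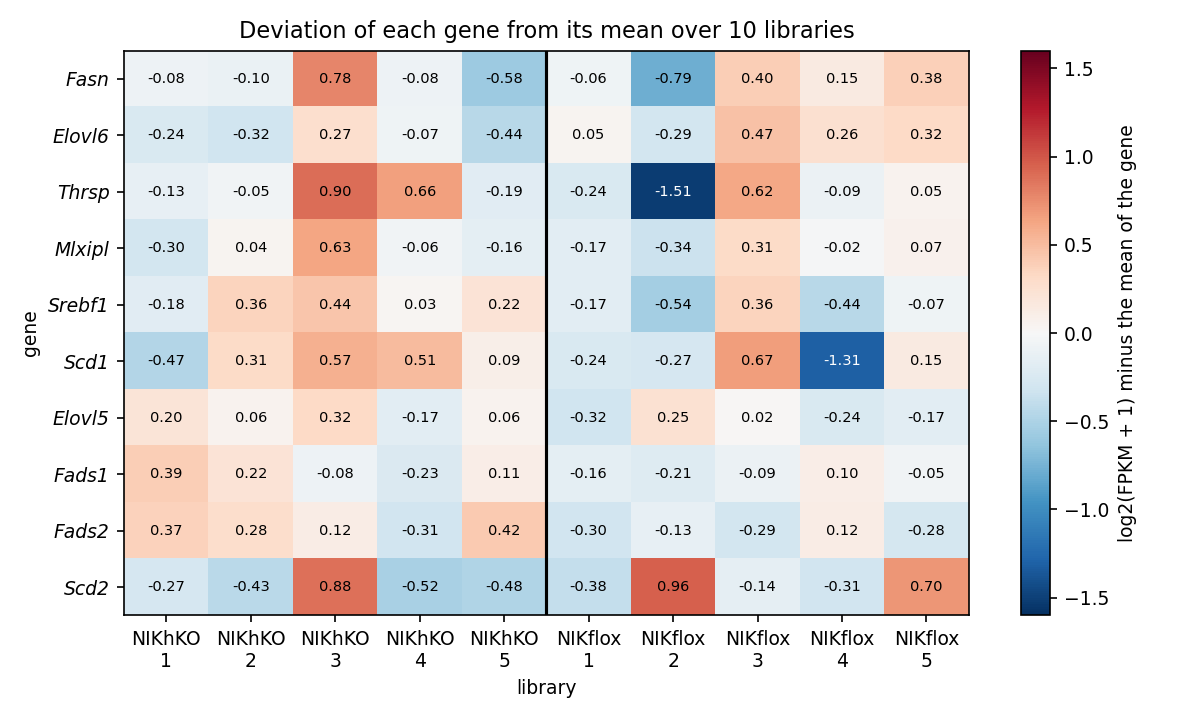
Deviation of each gene from its mean over the 10 livers, on the log2(FPKM + 1) scale, with NIKhKO livers left of the line and NIKflox livers right of it; red is above the mean and blue below, and each cell prints its value. NIKhKO 3 is above the mean in 9 of 10 genes, and NIKflox 2 is lowest for Fasn, Thrsp, Mlxipl and Srebf1.

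Enzyme transcripts were set against the transcripts of the 2 transcription factors over the 10 livers, 17 pairs in all. By Pearson r, 2 passed after adjustment (permutation tests with 100000 resamples, Benjamini-Hochberg over 17). Mlxipl and Fasn had a Pearson r of 0.86 (p = 0.0014, adjusted p = 0.024) and a Spearman rho of 0.76 (p = 0.014, adjusted p = 0.074). Srebf1 and Scd1 had an r of 0.80 (p = 0.0041, adjusted p = 0.035) and a rho of 0.85 (p = 0.0031, adjusted p = 0.031).

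Whether the calls held depended on the livers left out, while r was 0.72 or above in each setting. Both held without NIKflox 2, NIKflox 4, NIKhKO 1, NIKhKO 2, NIKhKO 4 or NIKhKO 5, each left out alone. Without NIKflox 1 alone or NIKflox 5 alone, Mlxipl and Fasn passed, and Srebf1 and Scd1 did not. Without the 2 livers farthest from the median of the x axis, the r of Mlxipl and Fasn was 0.72 (NIKhKO 3 and NIKflox 3 left out; exact permutation p = 0.041, adjusted p = 0.35, n = 8). That of Srebf1 and Scd1 was 0.86 (NIKhKO 3 and NIKflox 2 left out; exact permutation p = 0.0046, adjusted p = 0.079, n = 8). Neither passed the adjusted threshold then, nor without NIKhKO 3 alone (r of 0.78 for Mlxipl and Fasn and 0.77 for Srebf1 and Scd1) or NIKflox 3 alone (0.84 for Mlxipl and Fasn and 0.77 for Srebf1 and Scd1). Without NIKflox 2 and 4 together r was 0.84 for Mlxipl and Fasn and 0.79 for Srebf1 and Scd1 (exact permutation, adjusted p = 0.081 for each).

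Next came Mlxipl and Thrsp (r = 0.77, permutation p = 0.014; rho = 0.84, p = 0.0036), Srebf1 and Thrsp (r = 0.72, p = 0.013; rho = 0.68, p = 0.035) and the 2 factors with each other (r = 0.71, p = 0.017; rho = 0.75, p = 0.017), each at an adjusted p of 0.059. That adjusted p is the one of r. For rho the adjusted p (permutation) was 0.031, 0.10 and 0.074 in the same order. By rho, then, Mlxipl and Thrsp passed, as Srebf1 and Scd1 did, while Mlxipl and Fasn did not. Without the 2 farthest livers r was 0.65 for Mlxipl and Thrsp, 0.38 for Srebf1 and Thrsp and 0.48 for the factors with each other. Those 8 livers have a narrower range on the x axis by construction. Without NIKflox 2 and 4 together r was 0.80 for Mlxipl and Thrsp, 0.55 for Srebf1 and Thrsp and 0.75 for the factors with each other. Elovl6 had an r of 0.67 with Mlxipl (permutation p = 0.027, adjusted p = 0.076; rho = 0.65, p = 0.047) and of 0.13 with Srebf1 (p = 0.71; rho = 0.13, p = 0.73). After the genotype means were taken out, the r of Mlxipl and Elovl6 was 0.87 and that of Mlxipl and Fasn 0.87.

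Fads1 and Fads2 were on neither line. With Srebf1 their r was 0.096 (permutation p = 0.79; rho = 0.13, p = 0.73) and 0.17 (permutation p = 0.63; rho = 0.042, p = 0.92), and with Mlxipl −0.17 (p = 0.63; rho = 0.055, p = 0.89) and −0.11 (p = 0.77; rho = −0.14, p = 0.71). All these levels come from the same 10 libraries, so any error of a library enters both genes of a pair.

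**Figure D4:**
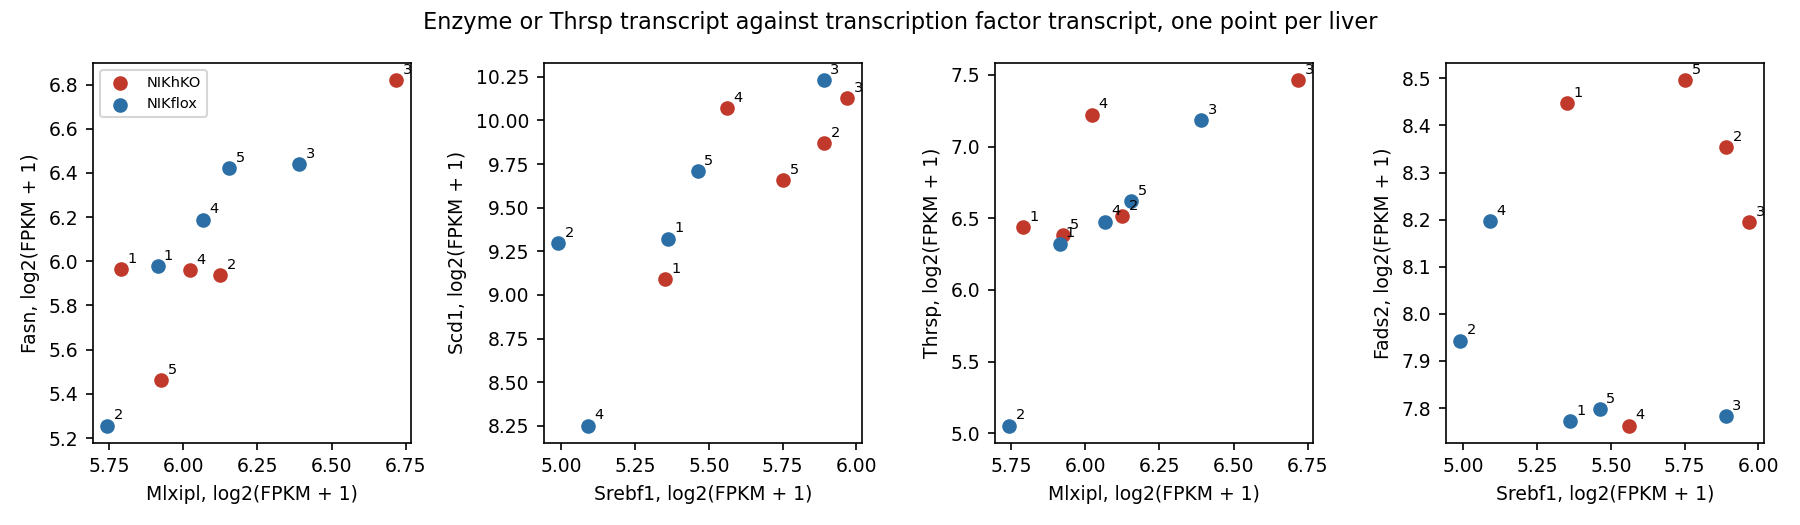
Transcripts of Fasn and Thrsp against Mlxipl, and of Scd1 and Fads2 against Srebf1, as log2(FPKM + 1) on axes that do not start at 0, one point per liver (NIKhKO red, NIKflox blue, numbered by replicate). Fasn follows Mlxipl (r = 0.86) and Scd1 follows Srebf1 (r = 0.80), with livers of both genotypes along each line, while Fads2 does not follow Srebf1 (r = 0.17).

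By the same measure the genes outside the 10 with the most similar profiles over the 10 livers were Acly (r = 0.92), Fgfr3 (0.90) and Bmp6 (0.90) for Fasn, Tbc1d8 (0.93), Lipc (0.91) and Nudcd3 (0.91) for Scd1, and Cth (0.97), Uox (0.92) and Xdh (0.91) for Srebf1. These are the top of 12721 genes, listed without a test. Acly, the ATP citrate lyase of the study title, averaged 53.2 FPKM in NIKhKO livers and 47.5 FPKM in NIKflox livers.

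A further 4 ratios within a liver, which do not depend on how libraries are scaled, were compared. Tests were exact two-sided permutation tests (smallest possible p 0.0079 with 5 livers per genotype, Benjamini-Hochberg over the 4). The ratio of Elovl6 to Elovl5 was 0.0588, 0.0611, 0.0788, 0.0859 and 0.0563 in NIKhKO livers 1 to 5, against 0.104, 0.0549, 0.112, 0.115 and 0.115 in NIKflox livers 1 to 5. NIKflox 1, 3, 4 and 5 were above every NIKhKO liver, and NIKflox 2 was below every one. The difference of the mean log2 ratios was −0.53 (exact permutation p = 0.079, adjusted p = 0.11), and without NIKflox 2 it was −0.73 (exact permutation p = 0.016, adjusted p = 0.063). Leaving out NIKflox 2 and 4 gave −0.72 (exact permutation p = 0.036, adjusted p = 0.071). With these livers left out, 0.016 and 0.036 are the smallest p the exact permutation test can give. A single ratio at that limit could not pass over the 4 by itself.

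Srebf1 relative to Mlxipl had a median of 0.733 in NIKhKO livers and 0.612 in NIKflox livers, a difference in log2 of 0.29 (exact permutation p = 0.056, adjusted p = 0.11). Without NIKhKO 3 that was 0.38 (exact permutation p = 0.016, adjusted p = 0.063), and without NIKflox 2 and 4 it was 0.17. For Fads1 over Fads2 the medians were 0.481 in NIKhKO livers and 0.555 in NIKflox livers (log2 difference −0.19, exact permutation p = 0.079, adjusted p = 0.11), and without NIKflox 2 and 4 the difference was −0.28 (exact permutation p = 0.036, adjusted p = 0.071). Scd1 over Scd2 had medians of 4201 in NIKhKO livers and 925 in NIKflox livers, with a log2 difference of 1.43 (exact permutation p = 0.13, adjusted p = 0.13), and 0.84 without NIKflox 2 and 4. Thus 0 of the 4 ratios passed. The exact permutation p of 0.016 and of 0.036 given here are again the smallest possible with those livers left out.

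The rest of the pathway was read from 7 lists, chosen by function. None of their 71 tested genes passed over all genes (edgeR, DESeq2 and limma: 0 called in each list), and 6 had an unadjusted p below 0.05, against 10% of all genes tested. The 13 partners of synthesis include suppliers of acetyl-CoA, malonyl-CoA, NADPH and activated fatty acids, and enzymes of mitochondrial fatty acid synthesis. Among the 13, 7 log2 fold changes were positive and 6 negative, with a median of 0.059. The smallest p-values belonged to Acaca, the acetyl-CoA carboxylase that makes malonyl-CoA for Fasn (5.46 ± 0.579 FPKM in NIKhKO and 7.17 ± 1.39 FPKM in NIKflox, log2 fold change −0.33, edgeR adjusted p = 0.44), Oxsm, the mitochondrial ketoacyl synthase (0.17, adjusted p = 0.52), and Me1, the malic enzyme that yields NADPH (40.3 ± 12.6 FPKM in NIKhKO and 58.1 ± 12.9 FPKM in NIKflox, −0.46, adjusted p = 0.59).

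All 8 tested members of the remaining elongation cycle had negative log2 fold changes, from −0.79 to −0.031 with a median of −0.11, beside −0.0098 for all genes tested; 0 of the 8 had an unadjusted p below 0.05. Elovl2, which extends polyunsaturated fatty acids after Elovl5, read 141 ± 10.2 FPKM in NIKhKO and 170 ± 29.4 FPKM in NIKflox (log2 fold change −0.20, edgeR adjusted p = 0.66). Elovl3, at 0.664 ± 0.545 FPKM in NIKhKO and 1.21 ± 0.610 FPKM in NIKflox, was at −0.79 (adjusted p = 0.71), and Hacd3, a dehydratase of the cycle, at −0.13 (adjusted p = 0.74). All 8 were negative with limma and DESeq2 as well, fits of the same livers and so no independent result. Of the desaturase partners 4 of 5 were positive, with a median of 0.21; Cyb5b among them was at 0.049, and −0.0016 with limma. Among these, Cyb5r3 and Cyb5a pass electrons to the desaturases. Cyb5r3 read 122 ± 6.39 FPKM in NIKhKO and 111 ± 11.3 FPKM in NIKflox (log2 fold change 0.21, unadjusted p = 0.045, edgeR adjusted p = 0.49), Cyb5a 270 ± 31.5 FPKM in NIKhKO and 231 ± 41.8 FPKM in NIKflox (0.29, adjusted p = 0.55), and Fads6 was at 0.28 (adjusted p = 0.62). Scd3 and Scd4, the other mouse stearoyl-CoA desaturases, were under the level tested.

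The 15 genes that process SREBPs or act upstream of them were nearly level, with a median of 0.0092 and a range from −0.15 to 0.16; Nr1h2 (−0.14), Scap (−0.15), which escorts SREBPs to the Golgi, and Insig1 (0.16), which retains them in the ER, had the smallest p-values (edgeR adjusted p = 0.69, 0.69 and 0.86). Of 12 ChREBP partners and targets 6 were positive and 6 negative. Tkfc was at −0.35 (edgeR adjusted p = 0.62) and Gckr at 0.21 (edgeR adjusted p = 0.65).

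Among 11 targets of lipid storage, with 5 positive and 6 negative, Angptl8 had the smallest p. This feeding-induced secreted protein read 82.4, 39.3, 96.6, 51.6 and 27.8 FPKM in NIKhKO livers 1 to 5, against 171, 50.2, 299, 154 and 207 FPKM in NIKflox livers 1 to 5, a log2 fold change of −1.49 (SE 0.44, unadjusted p = 0.0062, edgeR adjusted p = 0.29). Only NIKflox 2, again the low NIKflox liver, lay in the NIKhKO range. Pparg was at 0.55 (adjusted p = 0.38) and Gpam, the first acyltransferase of glycerolipid synthesis, at 0.24 (adjusted p = 0.64). In the insulin and feeding list 3 of 7 were positive. Insr read 1.36 ± 1.52 FPKM in NIKhKO and 4.71 ± 2.42 FPKM in NIKflox (−1.74, unadjusted p = 0.022, edgeR adjusted p = 0.40). Each genotype had 1 liver at the level of the other. NIKhKO 1 alone among the NIKhKO livers, at 4.08 FPKM, was above 0.8 FPKM. NIKflox 4 read 0.8005 FPKM, near the remaining NIKhKO livers (0.554 to 0.766 FPKM), with the other NIKflox livers at 4.08 to 6.85 FPKM. Without NIKhKO 1 the log2 fold change was −2.71 (edgeR adjusted p = 0.21), the largest of the 20 alternatives, which ran from −2.71 to −1.28. Pck1 was at −0.25 (adjusted p = 0.81) and Ppargc1a at 0.18 (adjusted p = 0.82). Several of these small values moved by more than 1.5 times over the 20 alternatives. The log2 fold change ran from 0.0046 to 0.32 for Ppargc1a, 0.033 to 0.36 for Gpam, 0.075 to 0.30 for Gckr, −1.35 to −0.25 for Elovl3 and −0.25 to −0.067 for Elovl2.

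**Figure D5:**
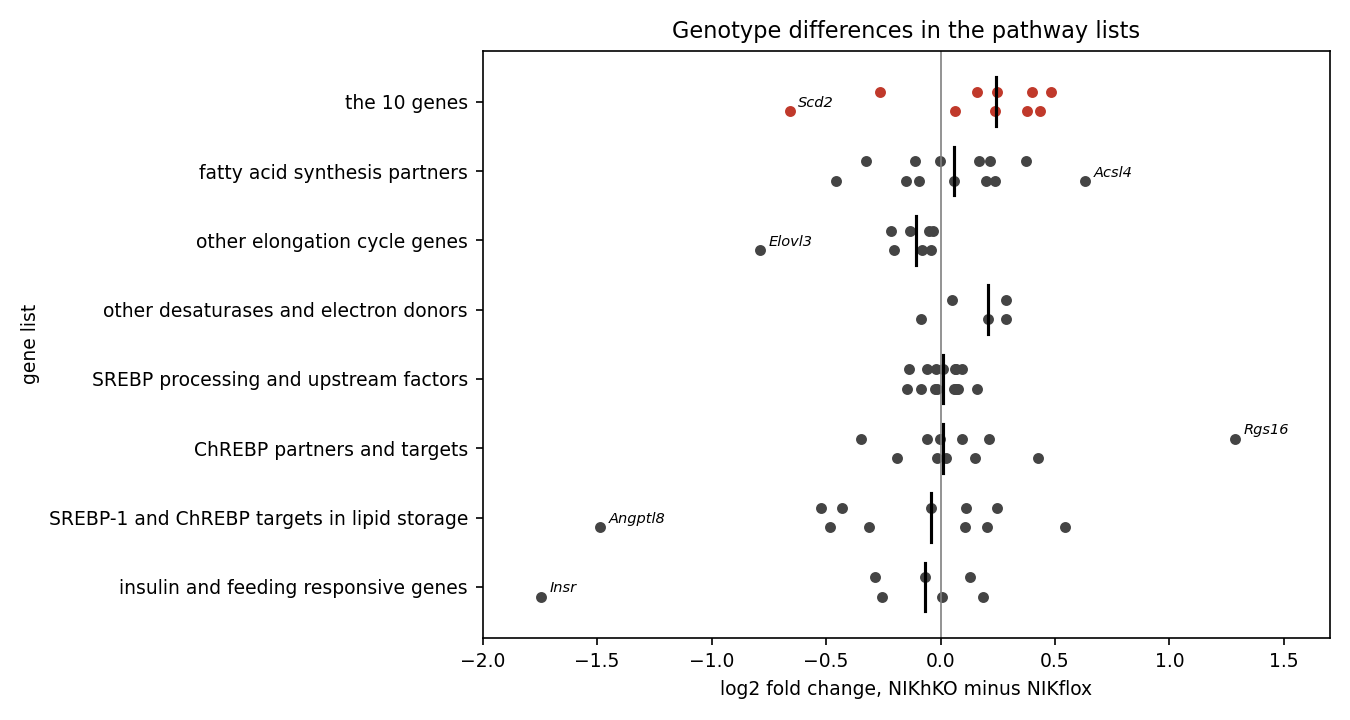
Log2 fold change, NIKhKO minus NIKflox, of the tested genes in the 10-gene group (red, top) and in 7 further pathway lists (dark grey); the black tick is the list's median and plotted genes beyond 0.6 in either direction are named, and 1 ChREBP list gene is not plotted. The 8 other elongation genes lie below 0, and the SREBP processing genes lie between −0.15 and 0.16.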

How the data were processed

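Liver RNA of 10 mice, 5 per genotype, was sequenced from oligo(dT)-selected libraries, per the labels' protocols. The deposited FPKM values and the deposited estimated counts (whole numbers, not normalized) are the authors' own, per the file headers, and the table writes 0.0001 FPKM where the count is 0. Tools named in the submitters' processing notes are HISAT2 2.0.4 and StringTie 1.3.4d, cutadapt 1.9 and edgeR, with hg38, a human build. The gene identifiers are mouse, and 9 of the 11 genes checked had the position of GENCODE M21 (GRCm38). Scd1 and Elovl6 were the other two.

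Low counts pile up at multiples of 4 (907 genes per library at 4, 330.5 at 3), so totals may overstate depth and precision. Genes whose FPKM averaged 0.5 or more, and Map3k14, were tested with edgeR 4.0.16 in R 4.3.3 (TMM), with limma 3.58.1 and DESeq2 1.42.0 as alternatives, and the fit was tested on simulated data. Intervals are 95%, from the SE and the t distribution. Permutations used scipy 1.17.1. The genes, lists and tests were chosen with earlier results of these data known. Named list genes are those that passed or, with none, the 3 with the smallest p. Protein sequences were not used here, and 1 gene of the ChREBP list is counted but not reported here.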

Additional observations from a re-analysis of the deposited data

Results flagged for a closer look

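Of 88 groups of 5 livers checked, 11 had a liver whose gap to the next exceeded 0.71 of the group's range, where chance flags about 5%. Of these, 3 concern the genes of the report, each through NIKhKO 3, which read 112 FPKM of Fasn (next NIKhKO liver 61.5 FPKM), 104 FPKM of Mlxipl (next 68.8 FPKM) and 2.04 FPKM of Scd2 (next 0.367 FPKM). NIKhKO 3 was also apart for Tkfc, at 113 FPKM (next 72.0 FPKM).

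In NIKflox the log2 ratio of Elovl6 to Elovl5 was −4.19 in NIKflox 2, with the next liver at −3.26. Stellate markers summed to 102 FPKM in NIKflox 2 (next 59.0 FPKM). NIKflox 4 stood apart for heart muscle markers, at 31.5 FPKM (next 7.26 FPKM), for Tkfc, at 154 FPKM (next 99.1 FPKM), and for Map3k14, at 0.899 FPKM (next 0.585 FPKM). Insr read 4.08 FPKM in NIKhKO 1, with the next NIKhKO liver at 0.766 FPKM. Heart muscle markers summed to 0.958 FPKM in NIKhKO 5 (next 0.209 FPKM).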

How the results depend on the processing

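None of the 10 genes was called under any of the 20 alternatives, and their median log2 fold change stayed between 0.13 and 0.30. Over all genes the count of calls, 3, was 207 with DESeq2, 6 with robust shrinkage, 0 with limma at either pseudocount and 1 without NIKflox 2 and 4; leaving out 1 liver gave 0 to 24. The sign turned for Fasn (−0.027 with limma at a pseudocount of 1 and −0.028 at 0.1, −0.13 without NIKflox 2 and 4, −0.22 to 0.19 leaving out 1 liver) and for Mlxipl (−0.053 to 0.25 leaving out 1 liver). Without NIKflox 2 and 4 it also turned for Pck1 (0.070) and Insig1 (−0.078). The cause was not tested.

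Correlations passing by Pearson r, 2 of 17, were 5 as deviations from genotype means and 0 without the 2 farthest livers. They were 0 without NIKflox 2 and 4, and 0 to 5 leaving out 1 liver. Weak correlations changed sign. With deviations from genotype means r was 0.021 for Srebf1 with Scd2, −0.18 with Fads1 and −0.25 with Fads2. Without the 2 farthest livers it was −0.15 for Srebf1 with Fasn, −0.23 with Elovl6 and −0.061 with Fads1, and for Mlxipl −0.20 with Scd2, −0.59 with Elovl5 and 0.017 with Fads1. Without NIKflox 2 and 4, Srebf1 gave 0.21 with Scd2 and −0.062 with Fads1. Leaving out 1 liver, Srebf1 ran from −0.49 to 0.25 with Scd2, −0.075 to 0.31 with Elovl6 and −0.14 to 0.31 with Fads1, and Mlxipl from −0.39 to 0.10 with Fads1, −0.34 to 0.057 with Fads2, −0.16 to 0.72 with Scd2 and −0.35 to 0.44 with Elovl5.

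The replicate numbers did not pair the livers: same-numbered livers had correlations of their deviations from −0.32 to 0.03. With the replicate number as a block 0 of the 10 genes were called (Fads2 0.42, adjusted p = 0.61), and the count over all genes was 2. The 4 ratio differences had exact p from 0.125 to 0.25 when the signs of same-numbered pairs were flipped. With 5 pairs that p cannot fall below 0.05, so this setting could not decide whether a ratio differs. Depth limits Scd2, at 47 to 795 estimated counts.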
